A study of Homo sapiens with 11 samples.

Results

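The genes described here are 9 classical transcriptional targets of estrogen receptor alpha: TFF1, GREB1, CTSD, CCND1, MYB, PDZK1, CXCL12, IGFBP4 and RARA. They were chosen by name as known targets, not by their values in these arrays, and make up 9 of the 19775 genes measured. Every probe set annotated to exactly 1 of the 9 symbols was used, 18 of the 54675 on the array, and a gene's probe sets were averaged. RARA had 5 probe sets, GREB1 had 3, CCND1, MYB and CXCL12 had 2 each, and the other 4 genes had 1 each.

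RNA came from MDA-MB-231 cells, a long-established human line of triple-negative breast cancer, known for having little or no estrogen receptor alpha. The comparison therefore asks whether estradiol, free or coupled to a protein, moves the genes of the nuclear estrogen receptor in a line regarded as negative for it. Before treatment the cells spent 4 h with 10% serum that charcoal had stripped of steroids, and all 11 arrays (Affymetrix HG-U133 Plus 2.0) were of 3 h of treatment. Estradiol at 1 µM had 1 array and E2-BSA at 1 µM, estradiol coupled to bovine serum albumin, had 2. E2-BSA at 1 µM with ICI at 10 µM, E2-BSA at 1 µM with G15 at 10 µM, ICI alone at 10 µM and G15 alone at 10 µM had 1 array each. The carrier BSA at 1 µM and 0.1% ethanol, taken here as the estradiol vehicle, had 1 array each, and the untreated control had 2. The estradiol array was coded with 0% ethanol, so estradiol minus control would include any effect of a vehicle in it. The labels give ICI as an abbreviation without its full name, whereas G15 is an antagonist of the membrane estrogen receptor GPER. Single arrays and the 2 duplicated groups limit the precision. Each gene's residual spread is the disagreement of the E2-BSA difference among 4 pairs: first arrays, second arrays, with ICI and with G15. For SEs, intervals and p-values, the fit described below drew it toward a trend over all genes. A response that ICI or G15 altered would count in that residual spread. Where arrays may have come from 1 culture, it holds no spread between cultures.

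Estrogen receptor alpha is a nuclear receptor that binds DNA as a dimer once estradiol occupies it. Its target genes carry estrogen response elements, or recruit it through other factors such as SP1 and AP-1, and in receptor-positive breast cancer cells estradiol raises their transcripts within hours. E2-BSA is used to favour receptors at the cell surface over the nuclear one, since the conjugate is thought to enter cells poorly.

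The deposited values are log2 values centred per probe set, so a value is a distance from that probe set's own centre. No absolute level can be read from them, levels of different genes cannot be compared, and the receptor-negative state of the cells could not be checked from the receptor's own level. The arrays fell into a set of 3 (estradiol, first E2-BSA, first control) and a set of 8 by their poly-A spike-ins, bacterial transcripts added to the RNA. These averaged 1.58, 1.40 and 1.62 in the set of 3 and -0.56 to 0.10 in the set of 8. The value of 0.10 was that of E2-BSA with G15, and the next highest of the set of 8 was -0.29, with G15 alone. The labels name no batch. All fitted differences below come from limma on all genes and 11 arrays, with a term for the array set and one for each agent, and the spread of unreplicated groups was taken to equal that of the duplicated and matched ones.

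Promoter windows from RefSeq, 250 bases before to 50 bases after a transcript start (GRCh38.p14), were given for 6 of the 9 genes in 9 windows; TFF1, GREB1 and CCND1 had no entry. The full estrogen response element GGTCANNNTGACC, a palindrome that reads alike on both strands, was in 0 of the 9 windows and in 0.057% of the 35116 windows of all genes. A single arm of it, GGTCA or its reverse complement TGACC, was in 5 of 9 windows and in 37.4% of all windows. Those windows belonged to CTSD, RARA, CXCL12 and PDZK1. The PDZK1 windows overlap and hold the same arm, at -68 and -100 from their starts. The SP1 box GGGCGG or CCGCCC was in 7 of 9 windows and in 45% of all windows, and the arms are also counted where they lie within a full element. The lines that follow show the windows with the most arms, 3 each, with the arms in capitals. The CTSD window lies at chr11:1763878-1764177 on the minus strand and the RARA window, of 1 of its 3 listed starts, at chr17:40308930-40309229 on the plus strand.
CTSD: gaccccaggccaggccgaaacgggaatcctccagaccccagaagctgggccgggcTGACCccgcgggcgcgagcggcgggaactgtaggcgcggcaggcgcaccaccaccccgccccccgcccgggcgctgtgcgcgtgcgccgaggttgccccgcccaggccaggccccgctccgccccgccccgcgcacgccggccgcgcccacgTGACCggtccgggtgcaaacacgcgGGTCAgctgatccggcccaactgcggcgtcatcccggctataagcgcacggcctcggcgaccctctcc
RARA: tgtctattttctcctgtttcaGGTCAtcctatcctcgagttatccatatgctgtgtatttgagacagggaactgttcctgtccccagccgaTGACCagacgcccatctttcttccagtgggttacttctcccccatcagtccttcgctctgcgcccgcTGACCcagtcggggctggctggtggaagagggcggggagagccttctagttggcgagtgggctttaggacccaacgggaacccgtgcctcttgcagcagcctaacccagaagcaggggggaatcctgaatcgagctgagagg
The CTSD window also held 5 SP1 boxes and the RARA window 1. The arms began at positions -195, -43 and -18 from the start in CTSD and at -229, -159 and -92 in RARA. These matches describe letters and not binding, and windows of this length leave out more distant elements.

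TFF1, which encodes the secreted trefoil factor pS2, the textbook estrogen-induced gene of breast cancer cells, had its widest division between the array sets and not between treatments. It stood at 3.20 with estradiol and at 2.77 in the first array of E2-BSA, against 3.71 in the first control array. In the set of 8 it stood at -0.03 in the second E2-BSA array, -0.36 with E2-BSA and ICI, -0.40 with ICI, -0.24 with E2-BSA and G15, -0.51 with G15, -0.21 with BSA, 0.03 with ethanol and -0.15 in the second control array. All 3 arrays of the smaller set lay above all 8 of the larger, and the highest of them was an untreated control. The set of 3 exceeded the set of 8 by 3.33 ± 0.34 for TFF1 (SE, limma adjusted p = 0.000731), the 17th largest absolute set difference of all genes. The spike-ins move with the same sets, and their part in this difference was not tested. The first control exceeded the second by 3.86 and the first E2-BSA array exceeded the second by 2.81, so this division is also seen between arrays that share a label. An estradiol array compared with the second control or with ethanol, both in the other set, would take up that division.

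**Figure D1:**
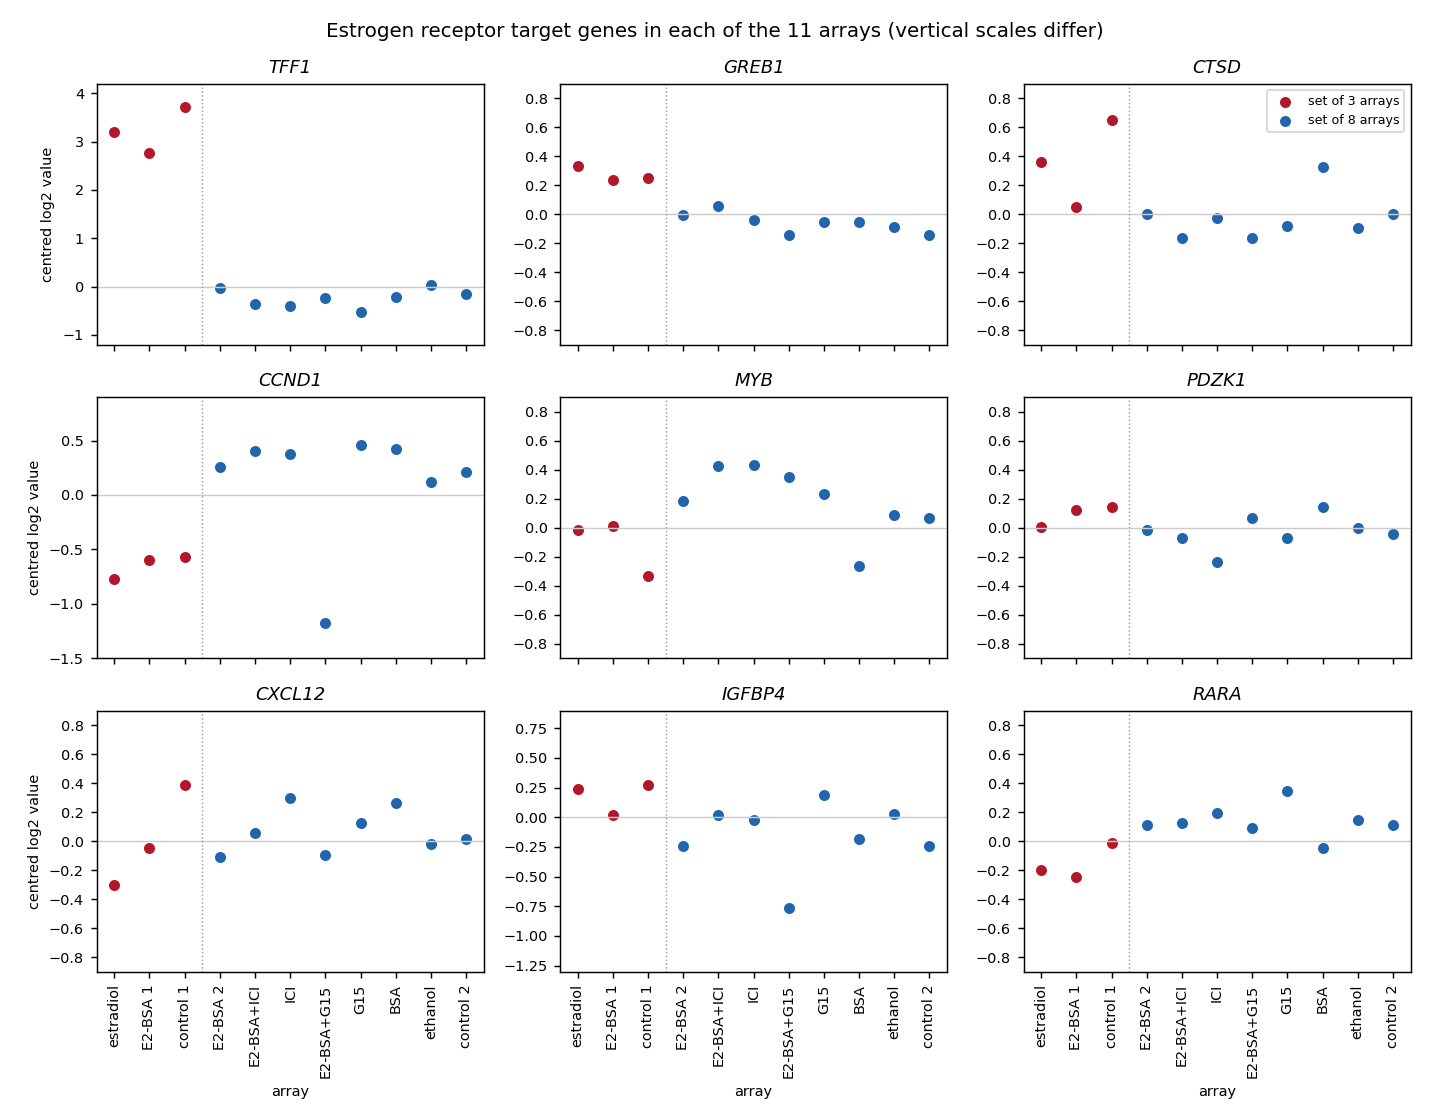
Centred log2 value of each of the 9 genes (vertical axis, scales differ) in each of the 11 arrays (horizontal axis), with the set of 3 arrays in red and the set of 8 in blue. TFF1 lies between 2.77 and 3.71 in the set of 3 and between -0.51 and 0.03 in the set of 8, and CCND1 and IGFBP4 have their lowest value with E2-BSA and G15.

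Of the other genes, GREB1, a cofactor of the receptor and one of its most sensitive targets, also had no overlap between the sets. It was at 0.33 with estradiol and at 0.24 in the first array of E2-BSA, against 0.25 in the first control array, and ranged from -0.14 to 0.06 in the set of 8. Such a lack of overlap was found in 29.8% of all genes. The limma set difference of GREB1 was 0.32 ± 0.11 (SE, adjusted p = 0.0684). TFF1 was the 1 member of 9 called between the sets, where 24.1% of all genes were called. Of the remaining 7 members, CTSD, PDZK1, CXCL12 and IGFBP4 were higher in the set of 3 by 0.17 to 0.39, and CCND1, MYB and RARA were at -0.82, -0.29 and -0.24, all with overlap and none called. Read singly, 4 of the 18 probe sets were called between the sets, 1 each of TFF1, GREB1, CCND1 and RARA, where 20.7% of all probe sets were. The members higher in the set of 3 numbered 6 of 9, where 60.3% of all genes were. The SDs of the members within the sets ran from 0.061 for GREB1, which 99% of genes equalled or exceeded, to 0.46 for CCND1, which 0.774% did.

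Estradiol moved none of the 9 target genes past the test, and more of them lay below the control than above it. Against the first control, the array of the same set, 2 of the 9 genes were higher (48.3% of all genes were) and 0 differed by more than 1 on the log2 scale, which is 2-fold (0.223% of all genes did). The members' median was -0.19, and that of all genes -0.0085. In the limma fit 2 of 9 were higher (46.5% of all genes), with a median of -0.09 beside -0.0156 over all genes. It called 0 of the 9 members and 0 of the 19775 genes (0%), with 1397 genes and 1 member at an unadjusted p under 0.05.

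The member furthest from zero was CXCL12, a chemokine gene that estradiol induces in receptor-positive cells, and it lay on the lower side. It was at -0.30 in the estradiol array, against 0.38 in the first control array, a difference of -0.69 that 1.5% of genes equalled or exceeded in size. Its limma difference was -0.60 ± 0.15 (SE, 95% interval -0.94 to -0.26, unadjusted p = 0.00386, adjusted p = 0.445), and it did not pass over all genes. Both of its probe sets were lower in the estradiol array, by -0.83 and -0.54. Against ethanol, the vehicle, CXCL12 was at -0.50 ± 0.20 (SE, limma adjusted p = 0.585), a difference that crosses the array sets and rests on the set term. In the set of 8, without free estradiol, CXCL12 ranged from -0.11, in the second E2-BSA array, to 0.30, with ICI alone.

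TFF1 was 0.51 lower on the log2 scale in the estradiol array than in the first control, and its limma difference was -0.10 ± 0.44 (SE), with a 95% interval of -1.11 to 0.90. The upper limit depended on single arrays: without the first control the difference was 0.57 with a limit of 1.61, and without the second control or the second E2-BSA array the limit was 1.002 or 1.007, so that a rise of 2-fold was not placed outside it. GREB1 was at 0.10 ± 0.14, with an interval of -0.22 to 0.43. CTSD, the lysosomal protease cathepsin D, was at -0.09 ± 0.20 (interval -0.55 to 0.37). PDZK1, a scaffold protein with PDZ domains, was at -0.09 ± 0.13 (interval -0.40 to 0.22). Among the targets that act in proliferation, MYB, a transcription factor gene, was at 0.22 ± 0.16, with both probe sets higher than in the first control (0.19 and 0.45). CCND1, which encodes the G1 cyclin D1, was at -0.39 ± 0.48, and its interval of -1.49 to 0.72 was the widest of the 9. That fitted value also draws on the array of E2-BSA with G15, where 1 CCND1 probe set was at -2.43. Against the first control alone CCND1 was at -0.20, and without both G15 arrays at -0.18. With only the probe set whose name does not end in _s_at or _x_at it was at -0.04. IGFBP4, a binding protein of insulin-like growth factors, was at -0.05 ± 0.28 (interval -0.71 to 0.60), and RARA, the retinoic acid receptor alpha gene, at -0.14 ± 0.15 (interval -0.48 to 0.20). All 9 limma adjusted p-values lay between 0.445 and 0.999, and 8 of the 9 intervals included 0, the exception being that of CXCL12.

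**Figure D2:**
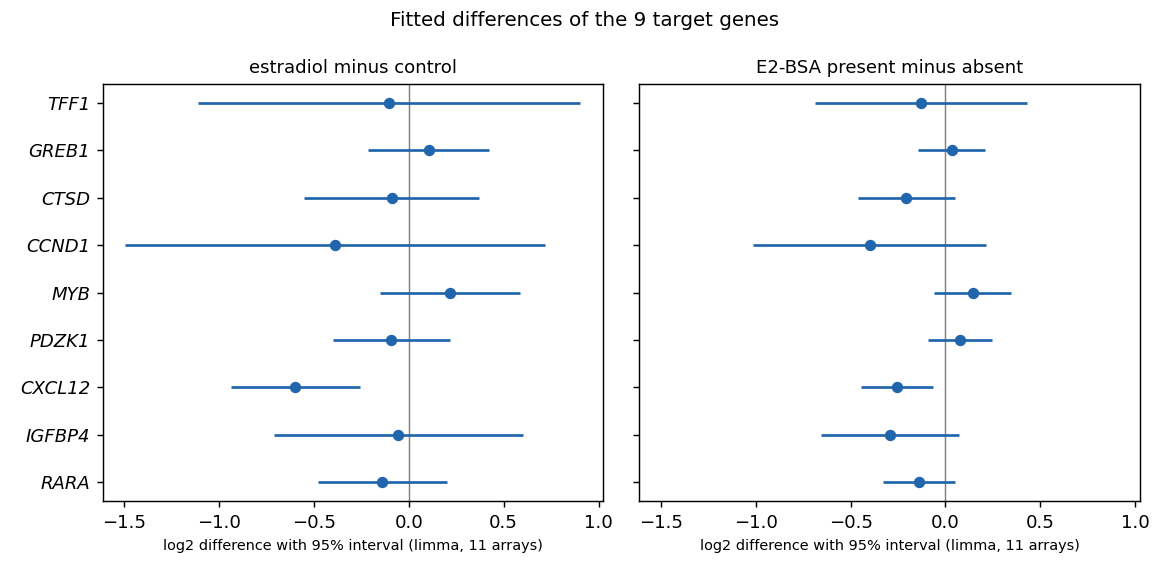
Fitted log2 differences (points) with 95% intervals (lines) of the 9 genes for estradiol minus control (left) and E2-BSA present minus absent (right), from limma on 11 arrays. The interval of CXCL12 lies below 0 in both panels, at -0.94 to -0.26 and -0.44 to -0.07, and neither difference passed after adjustment over all genes.

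E2-BSA was set against its absence in 4 matched pairs, whose mean is the limma difference. Of the 9 members, 3 were higher (42.7% of all genes were), the median was -0.14 beside -0.018 over all genes, and limma called 0 of the 9 and 0 of 19775 genes (0%), with 927 genes and 1 member at an unadjusted p under 0.05. The number of members higher was 1 of 9 in the pair of the first arrays (49.4% of all genes), 6 in that of the second arrays (57.7%), 5 with ICI on both sides (46.8%) and 3 with G15 on both sides (34.7%). The median member differed by -0.24, 0.03, 0.03 and -0.09 in these pairs, in the same order. In the pair of the second arrays all 9 members lay between -0.12 and 0.14. A log2 difference beyond 1 was found for 0 members in the first arrays (0.511% of all genes), the second arrays (0%) and the ICI pair (0.00506%).

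CXCL12 was again the member with the smallest p. It was at -0.05 in the first E2-BSA array, against 0.38 in the first control. In the second arrays it was at -0.11 with E2-BSA, against 0.01 in the control. With ICI on both sides it was at 0.05 with E2-BSA, against 0.30 without, and with G15 at -0.10, against 0.13. It was lower with E2-BSA in all 4 pairs, by -0.43, -0.12, -0.24 and -0.22, and the limma difference was -0.26 ± 0.08 (SE, 95% interval -0.44 to -0.07, unadjusted p = 0.0145, adjusted p = 0.903). Without the first E2-BSA array the interval was -0.40 to 0.004 and included 0. The 2 probe sets shared this unevenly: one was lower in all 4 pairs (-0.14, -0.08, -0.57 and -0.46), while the other was at -0.73, -0.16, 0.08 and 0.01. RARA was the other member that was lower in all 4 pairs, by -0.24, -0.0022, -0.06 and -0.25 (limma -0.14 ± 0.08, SE, adjusted p = 0.903). Of its 5 probe sets, 2 were lower in all 4 pairs and 1 was higher in 3 (0.24, 0.13 and 0.06, with -0.12 in the G15 pair). The RARA difference was -0.23 with the median of its probe sets and -0.0065 with the single probe set whose name does not end in _s_at or _x_at. Of all genes, 8.26% were lower in all 4 pairs and 5.14% were higher in all 4, and 0 members were higher in all 4. Read singly, 1 of the 3 GREB1 probe sets was higher in all 4 pairs (0.32, 0.26, 0.07 and 0.11). So was 1 of the 2 MYB probe sets (0.25, 0.09, 0.15 and 0.19). Another GREB1 probe set was at -0.32, 0.13, -0.06 and -0.24. The estradiol and the first E2-BSA differences share the first control array, in which 5 members (TFF1, CTSD, PDZK1, CXCL12 and IGFBP4) had their highest value of the 11 arrays.

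TFF1 differed by -0.94 between the first arrays, where it was at 2.77 with E2-BSA and 3.71 in the control. In the other 3 pairs it was higher with E2-BSA, by 0.11, 0.04 and 0.27. The limma difference was -0.13 ± 0.24 (SE, 95% interval -0.69 to 0.43, adjusted p = 0.954) and came to 0.14 without the first control or the first E2-BSA array. CTSD likewise had its largest difference between the first arrays, -0.60, and lay between -0.14 and 0.0002 in the other 3 pairs (limma -0.21 ± 0.11, adjusted p = 0.903). GREB1 was at 0.03 ± 0.08 (interval -0.15 to 0.21) and PDZK1 at 0.08 ± 0.07 (interval -0.09 to 0.25). A log2 difference of 1 lay above both intervals and above those of all other members, the highest upper limit being the 0.43 of TFF1. These limits concern the array signal. Centred values do not show whether GREB1 or PDZK1 was detected, so whether a doubling of either transcript would have been seen was not tested. MYB was higher in 3 of 4 pairs, by 0.35, 0.12 and 0.12, and at -0.01 with ICI on both sides (limma 0.14 ± 0.09, SE, adjusted p = 0.903).

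**Figure D3:**
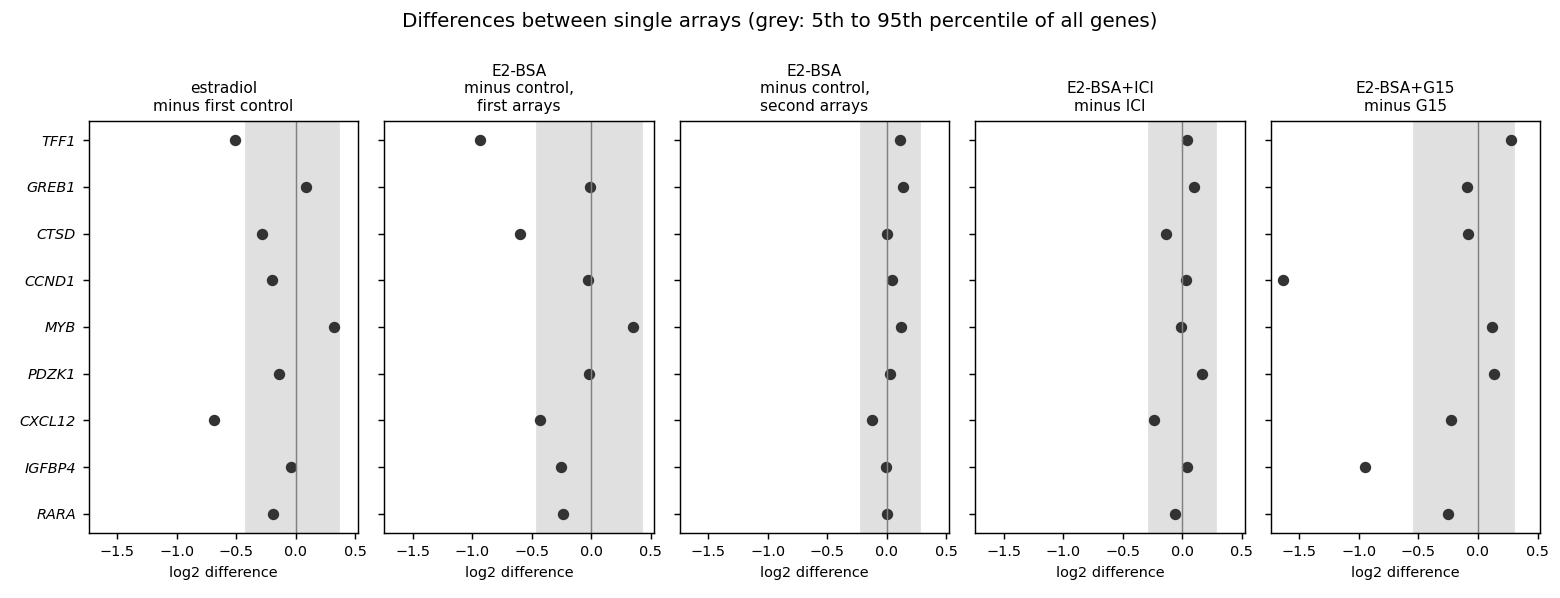
Log2 differences between 2 single arrays for the 9 genes (points) in 5 comparisons (panels), with the 5th to 95th percentile of all genes shaded. In the second arrays and the ICI pair all 9 points lie within the shading, and with G15 on both sides CCND1 lies at -1.64 and IGFBP4 at -0.95, both below it.

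The largest difference of a member in any of the 4 E2-BSA pairs was that of CCND1 with G15. CCND1 stood at -1.17 with E2-BSA and G15, against 0.46 with G15 alone, a difference of -1.64. It was the 1 member of 9 past a log2 difference of 1 in that pair, where 1.35% of all genes were. In the first arrays, the second arrays and the ICI pair CCND1 differed by -0.03, 0.05 and 0.03. The drop came from 1 of its 2 probe sets: the one whose name ends in _s_at was at -2.43 with E2-BSA and G15, against 0.84 with G15, a difference of -3.27, while the other was at 0.09 in either array. In this pair 929 probe sets were lower by more than 1.5, and where their genes had another probe set (687 of them) those others had a median difference of -0.15. With only the probe sets whose names do not end in _s_at or _x_at, CCND1 had an E2-BSA difference of 0.05 in place of -0.40 ± 0.26 (SE, limma adjusted p = 0.903). IGFBP4, with a single probe set, was at -0.76 with E2-BSA and G15, against 0.18 with G15, its lowest value of the 11 arrays. Its E2-BSA difference was -0.95 in this pair and -0.26, -0.01 and 0.04 in the others (limma -0.29 ± 0.16, SE, adjusted p = 0.903).

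**Figure D4:**
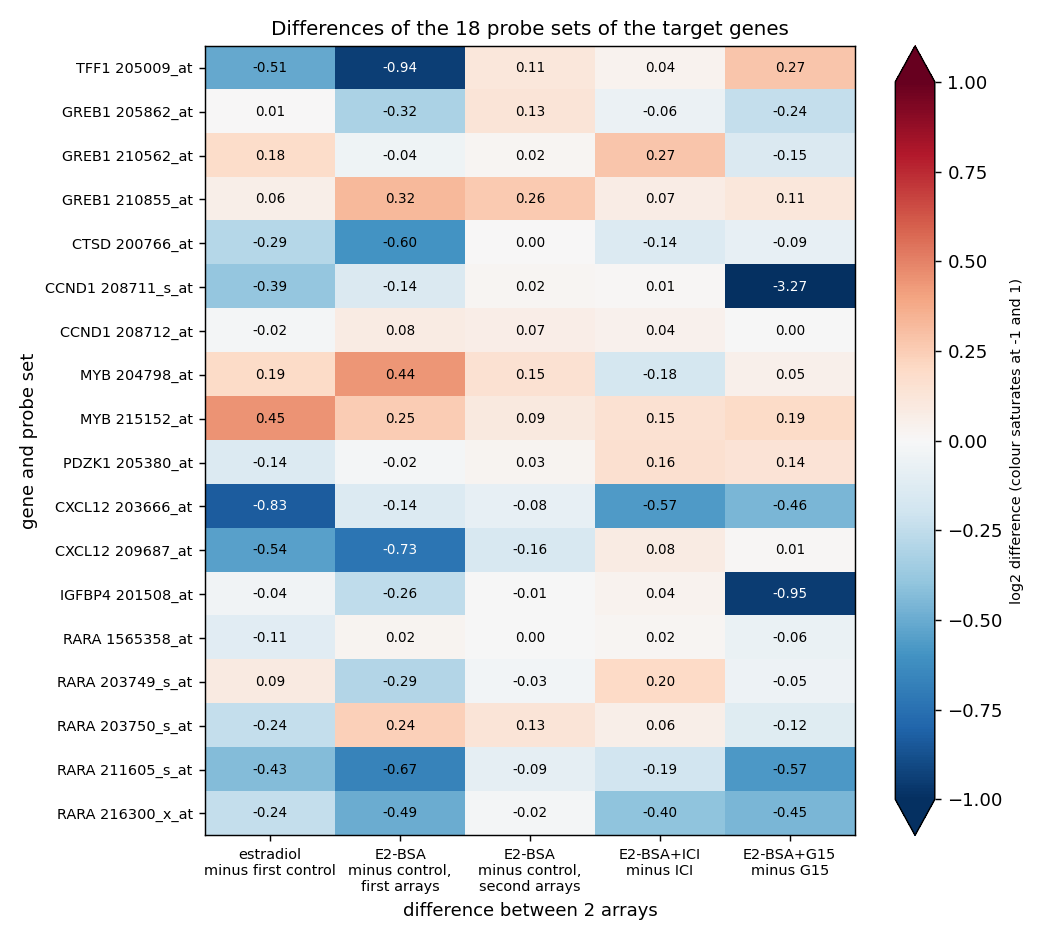
Log2 differences between 2 single arrays (columns) for each of the 18 probe sets of the 9 genes (rows), with the value printed in each cell and the colour saturating at -1 and 1. One CCND1 probe set is at -3.27 with G15 on both sides while the other is at 0.00, and the 2 CXCL12 probe sets are both below -0.5 for estradiol only.

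Beside the second-array pair, the E2-BSA difference changed by more than 1 with ICI in 0 of 9 members and with G15 in 1, CCND1, at -1.68. Of all genes 0.0759% changed by that much with ICI and 1.24% with G15. These are differences of single arrays and have no test. The other 8 members changed by between -0.14 and 0.13 with ICI and between -0.94 and 0.16 with G15.

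The agents that serve as backgrounds did not move the members past the test either. Limma called 0 of 9 members for BSA minus control (0.354% of genes called), E2-BSA minus BSA (0.308%), ethanol minus control (0.086%), estradiol minus ethanol (0.0101%), ICI present minus absent (0%, with 3219 genes at an unadjusted p under 0.05) and G15 present minus absent (0%, with 2042). The median of all genes was 0.17 for BSA, -0.19 for E2-BSA minus BSA, 0.14 for ICI and 0.10 for G15, a shift that the members' differences include. The members higher numbered 4 of 9 with BSA (80% of all genes), 3 of 9 for E2-BSA minus BSA (17.9%), 4 of 9 with ethanol (54.7%), 3 of 9 for estradiol minus ethanol (44.7%), 6 of 9 with ICI (81.7%) and 4 of 9 with G15 (75.6%). At an unadjusted p under 0.05 stood CXCL12 for estradiol minus ethanol (-0.50 ± 0.20, adjusted p = 0.585), MYB with ICI (0.30 ± 0.12, SE, limma adjusted p = 0.297), MYB for E2-BSA minus BSA (0.46 ± 0.16, adjusted p = 0.236) and CXCL12 for E2-BSA minus BSA (-0.44 ± 0.15, adjusted p = 0.232). With array medians subtracted, and with quantile normalization, MYB with ICI was at 0.18 and 0.15. Under the same settings MYB for E2-BSA minus BSA was at 0.62 and 0.76, and CXCL12 at -0.28 and -0.24, with limma adjusted p-values of 0.175 to 0.742 over these 6 values. MYB was at 0.19 in the second E2-BSA array, against -0.26 in the BSA array, its lowest value in the set of 8. The 2 MYB probe sets were at 0.85 and 0.07 for E2-BSA minus BSA, and at 0.47 and 0.13 with ICI. Those of CXCL12 were at -0.71 and -0.17 for E2-BSA minus BSA. CCND1 with G15 was at -0.59 ± 0.37 (adjusted p = 0.547), and this average holds the array in which a single probe set was at -2.43.

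Other estrogen-responsive genes were read in the same fit. Of 30 further genes known to be induced by estradiol, 0 were called higher and 0 lower with estradiol or with E2-BSA; 14 were higher with estradiol (median -0.037, all genes -0.0156) and 16 with E2-BSA (median 0.004, all genes -0.018). The furthest from 0 with estradiol were the kinase inhibitor gene PKIB (0.36 ± 0.17, SE), the trefoil gene TFF3 (-0.31 ± 0.22) and XBP1, a transcription factor of the unfolded protein response (0.30 ± 0.15). With E2-BSA they were XBP1 (-0.31 ± 0.08), the corepressor gene NRIP1 (-0.23 ± 0.19) and the survival gene BCL2 (0.22 ± 0.09). None of these passed (limma adjusted p of 0.757 or more). Ethanol minus control called 1 of the 30, the AP-1 gene FOS (3.04 ± 0.25, adjusted p = 0.0103), with 0.086% of all genes called. That FOS value rests on 1 ethanol array. FOS was at 0.08 ± 0.25 for estradiol minus control and at -2.96 ± 0.34 for estradiol minus ethanol (SE), which crosses the array sets. Between the array sets 9 of the 30 were called higher and 4 lower in the set of 3, where 24.1% of all genes were called. Chosen after their values were seen, AGR2, a disulfide isomerase family gene, was at 2.69 with estradiol and at 2.87 in the first array of E2-BSA, against 2.78 in the first control, and at -0.31 to 0.03 in the set of 8. It resembles TFF1 in that division. Of the 3 measured genes known to be repressed by estradiol, 2 were also called higher in the set of 3. They were CCNG2 at 1.89 ± 0.14 and BIK at 0.69 ± 0.10 (SE, limma adjusted p = 0.000342 and 0.0029), while ERBB2 was at 0.02 ± 0.17.

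The 3 measured estrogen-repressed genes were not called with estradiol or with E2-BSA. The cyclin gene CCNG2 was at 0.22 ± 0.17 with estradiol and 0.02 ± 0.10 with E2-BSA (SE), the receptor tyrosine kinase gene ERBB2 at -0.05 ± 0.21 and 0.10 ± 0.12, and the apoptosis gene BIK at -0.26 ± 0.13 and 0.09 ± 0.07. Of the 14 measured receptors and coregulators 0 were called in either comparison. ESR1, the gene of estrogen receptor alpha, was at -0.10 ± 0.14 with estradiol and 0.05 ± 0.08 with E2-BSA, and ESR2, that of receptor beta, at -0.08 ± 0.14 and 0.01 ± 0.08. GPER1 was at -0.16 ± 0.14 and -0.07 ± 0.08, and PGR, the progesterone receptor gene and itself an estrogen target, at -0.20 ± 0.15 and -0.09 ± 0.08 (limma adjusted p of 0.909 or more for these 4). ESR1 ranged from -0.13 to 0.22 over the 11 arrays, and its set difference was 0.07 ± 0.11, beside 3.33 for TFF1. The part of ESR1 in the TFF1 difference was not tested, and centred values do not show whether ESR1 was detected. Also furthest from 0 were the acetyltransferase gene EP300 (-0.22 ± 0.31 with estradiol, -0.31 ± 0.17 with E2-BSA), SP1 with estradiol (0.17 ± 0.13) and TFAP2C with E2-BSA (0.18 ± 0.13). EP300 and NRIP1 had their lowest values, -0.89 and -0.68, in the array of E2-BSA with G15, as did CCND1 and IGFBP4.

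Of 8 luminal epithelial markers 1 was higher with estradiol and 2 with E2-BSA, and of 6 mesenchymal or basal markers 4 and 3 were, with 0 called in each. Furthest from 0 with estradiol were CDH1 (-0.31 ± 0.25, SE), KRT19 (-0.14 ± 0.18) and FOXA1 (-0.12 ± 0.16) among the luminal markers, and KRT14 (-0.41 ± 0.23), KRT5 (-0.24 ± 0.36) and SNAI2 (0.13 ± 0.20) among the others. With E2-BSA they were EPCAM (-0.34 ± 0.10), GATA3 (-0.11 ± 0.09) and KRT8 (-0.07 ± 0.08), and ZEB1 (-0.16 ± 0.14), CD44 (0.07 ± 0.08) and SNAI2 (-0.04 ± 0.11). Between the sets of arrays 3 of these 14 markers were called, where 24.1% of all genes were: SNAI2, a mesenchymal marker, was at 2.17 ± 0.16 (adjusted p = 0.000366), CDH1 at 0.79 ± 0.19 (adjusted p = 0.0222) and the keratin gene KRT18 at -0.69 ± 0.10 (adjusted p = 0.00232), all relative to the set of 8. The part of these 3 genes in the TFF1 difference was not tested.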

How the data were processed

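The authors deposited 1 table of log2 values for 54675 probe sets and 11 arrays. Per the labels' protocols, RNA was isolated on columns and labelled with biotin by the Affymetrix protocol. How the authors summarised and normalised the arrays is not given in the sources used here, and neither is the log base, taken as 2. A pair of values equal in size and opposite in sign (within 1e-05) lay closest to 0 in 28281 probe sets (51.7%), a mark of centring on the median of an even number of arrays. The median of an odd number would leave a value at 0, so the centre was not taken over exactly these 11. Values ran from -4.2 to 6.69.

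Of the probe sets, 41091 had 1 symbol in the platform annotation, 1801 several and 11777 none; 62 were controls. Averaging gave 19775 genes. limma 3.58.1 in R 4.3.3 (eBayes with trend, Benjamini-Hochberg at 0.05 over all genes, two-sided) fitted 11 arrays with the array set, E2-BSA, ICI, G15, estradiol, ethanol and BSA as terms, leaving 3 residual degrees of freedom. The E2-BSA term equals the mean of the 4 pairs. The set was taken from 24 poly-A probe sets, with a largest gap of 1.3. The fit was also run on simulated data, with planted estradiol and E2-BSA changes larger than any fitted for a member. That run does not show how well smaller changes would be found. Genes named outside the 9 were the 3 furthest from 0 per list in the estradiol and E2-BSA comparisons, ESR1, ESR2, GPER1, PGR, the gene most like each member, and genes called in ethanol or between the sets, chosen after their values were seen. Members, lists, fit and array set were chosen with earlier results of these data known. For the E2-BSA and control duplicates, first minus second array differences correlated at 0.814 over genes (a check of the pairing). No array is a copy of another.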

Additional observations from a re-analysis of the deposited data

Results flagged for a closer look

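CCND1 stood apart from the other pairs in 1 comparison. Its E2-BSA difference with G15 on both sides, -1.64, was the lowest of the 4 pair differences, which were otherwise -0.03, 0.05 and 0.03, and Dixon's ratio of the gap to the range, 0.954, was above its 95% limit for 4 values. That limit is passed by chance in about 1 of 20 sets of values, and 9 genes were examined. The difference with G15 was also opposite in sign to that of the second arrays and -1.68 from it, between single arrays, and this change was not tested. It rests on the CCND1 probe set whose name ends in _s_at.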

How the results depend on the processing

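Limma called 0 members for estradiol, E2-BSA, BSA, E2-BSA minus BSA, ethanol, estradiol minus ethanol, ICI and G15 under every alternative run. Without the array set term and without a replicate block, TFF1 for estradiol minus control was at 1.56 (adjusted p = 0.938), CTSD at 0.083 and IGFBP4 at 0.14, in place of -0.10, -0.09 and -0.05. In the 4 control and E2-BSA arrays with the replicate number as a block, CCND1 was at 0.0067 for E2-BSA and 0 members were called. Quantile normalization gave TFF1 0.053 for E2-BSA and 0.040 for estradiol. The median of probe sets gave GREB1 -0.015 for E2-BSA, and probe sets without _s_at or _x_at gave CCND1 0.047. Without both G15 arrays CCND1 was at 0.014 for E2-BSA and IGFBP4 at 0.056 for estradiol.

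When the fit left out 1 duplicate, the E2-BSA difference of TFF1 ran from -0.21 to 0.14 and that of GREB1 from -0.0027 to 0.047. The estradiol difference of TFF1 ran from -0.51 to 0.57, the high value without the first control, and that of CTSD from -0.29 to 0.24. Between the array sets, a comparison added after the data were seen, TFF1 was called under every alternative run, at 1.67 with quantile normalization and 2.79 to 3.87 with 1 array left out. Members called there numbered 2 with probe sets without _s_at or _x_at (CCND1 also), where 4424 of all 19775 genes were called. Without both G15 arrays they numbered 3 (CCND1 and IGFBP4 also), where 5852 of all genes were called. With 1 array left out they numbered 1 to 2 (CTSD also, without the first E2-BSA array, where 3610 of all genes were called). The causes were not tested. Genes called over all genes ranged from 4 to 80 for BSA, 0 to 74 for E2-BSA minus BSA, 0 to 36 for ethanol, 0 to 22 for ICI, 0 to 3 for estradiol minus ethanol and 1332 to 5852 between the array sets. Background correction and a filter on dim probe sets were not run, since centred values hold no level.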

Other observations

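Correlations among the 9 genes within the array sets were of mixed sign. Over the 11 arrays, each set's mean taken off, the 36 pairs of members had Pearson correlations from -0.80 to 0.84 with a median of 0.09, and 23 were positive. The highest was between CCND1 and IGFBP4 (0.84), which share their lowest array, E2-BSA with G15, and the lowest between CTSD and MYB (-0.80). The gene most like each member by the same measure was SLC2A12 for TFF1 (0.91), MIAT for GREB1 (0.93), ASPHD2 for CTSD (0.96), EP400 for CCND1 (0.99), BCO1 for MYB (0.94), PCAT7 for PDZK1 (0.95), PGBD5 for CXCL12 (0.96), CPEB4 for IGFBP4 (0.97) and LIMS2 for RARA (0.93). For CCND1, 306 genes had a correlation above 0.9, against 1 for TFF1. All points share their arrays, and these are the highest of 19775 genes over 11 points.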
